A study of Mus musculus with 4 samples.

Results

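Axon guidance ligands and receptors were examined in RNA recovered with an antibody against CPEB2, a cytoplasmic polyadenylation element binding protein. Members were all genes on the array whose symbol belongs to the class 3 to class 7 semaphorins, the plexins, the neuropilins, the ephrins and Eph receptors, the Slits and Robos, the netrins and netrin-Gs, or Unc5 and Dcc. They comprised 71 of the 24164 gene symbols on the array, with 37 ligands and 34 receptors. In RNA immunoprecipitation (RIP) a protein is captured on antibody beads and the attached RNA is measured, and non-specific IgG serves as the background. The RNA recovered with each antibody is called the CPEB2 pulldown and the control pulldown below. The tissue was cortex and hippocampus of male C57BL/6 mice aged 8 weeks. CPEB2 IgG and control IgG each received a share of the same lysate (3 h on beads), and the RNA that came down was hybridized to one-color arrays. Each antibody has 2 arrays from 2 experiments, and the antibody is the only labelled difference between the groups. The animals carry no labelled allele or treatment, and how many animals went into a lysate is not given in the sources used here. The labels conflict in 1 place, since a free-text field of the CPEB2 IgG arrays speaks of CPEB3 IgG where the titles and protocol have CPEB2, and the titles were followed. Both antibodies met the same lysate, and in a lysate of mixed tissue the number of cells of a type and the RNA per cell behind a signal cannot be told apart. Neither can RNA bound by CPEB2 and RNA that came with it indirectly.

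Growing axons are steered by ligands that attract or repel them through receptors on the growth cone. Secreted class 3 semaphorins act through neuropilins and plexins, and membrane-bound semaphorins act on plexins directly. Ephrin-As are anchored to the membrane by a lipid, ephrin-Bs cross it, and both bind Eph receptor tyrosine kinases. Slits signal through Robos, and netrins through Dcc, mainly in attraction, and Unc5 receptors, in repulsion. In the adult forebrain many of these proteins are known at synapses and on dendritic spines. CPEB proteins bind the cytoplasmic polyadenylation element (CPE), a U-rich motif of the 3' untranslated region, and control the translation of the mRNAs that hold it.

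Each probe of the array is 60 bases long and stands for a short stretch of a transcript. Positions come from the annotation of the array (mm9), with the strand of the transcript, and this annotation does not say which part of the transcript a probe covers. Shown by their first 30 bases, 5' to 3', are probes with the largest differences between antibodies, to place these measurements on their transcripts. They were chosen among the brightest probe of each gene, separately for ligands and for receptors. Another probe of Epha5, shown further below, had a larger difference. The Efna1 probe (chr3:89075703-89075762, minus strand), the Sema4d probe (chr13:51796617-51796676, minus strand), the Epha3 probe (chr16:63545155-63545214, minus strand) and the brighter Plxnd1 probe (chr6:115904829-115904888, minus strand) start as follows.
Efna1: gtacagtgtctgtatataaatgtgctgtat
Sema4d: tttctacttggaactgtacacatttgaaaa
Epha3: acccagagaattatatgttcttttctacaa
Plxnd1: aggggaaggctgggactctctggaacattc

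A second set of sequences is shown because they hold repeats and the values of their genes stood apart from those of the other members. The capitals mark the repeat within a window of 30 bases. The probes lie at chr5:84487348-84487407 on the minus strand (Epha5), chr16:21223165-21223224 on the plus strand (Ephb3), chr1:36605998-36606057 on the minus strand (Sema4c) and chr2:124491609-124491668 on the plus strand (Sema6d).
Epha5: gaaatTGTGTGTGTGTGTGTGTGTGcgtgc
Ephb3: TGTGTGTGTGTGTGTGTGTGTGTGTGTGTG
Sema4c: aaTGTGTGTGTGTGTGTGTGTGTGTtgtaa
Sema6d: agaggggcgaGTGTGTGTGTGTGTGTGTGT
Epha5 has 2 further probes without a repeat, at chr5:84483837-84483896 (nearest the 3' end) and chr5:84494886-84494945, both on the minus strand, and their first 30 bases are shown in that order for comparison.
Epha5: gttcccatctgcatttgtttgtgctttcag
Epha5: gtaccatttattacctataaatatcatagt

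Signals are spot intensities, divided by the 75th percentile of their array and then log2-transformed, and a log2 fold change is CPEB2 IgG minus control IgG within an experiment. Of the spots on an array, between 68.4% and 74.1% were well above background, and no spot was saturated. The brightest detected probe stood for each gene, and limma, with the experiment as a block, was fitted to 19698 genes. Fits with 1 array left out had no block and set 1 array against the mean of 2, so the pairing was dropped. A call lost there can reflect the missing array or the change of model. The smallest p of an exact two-sided permutation test of 1 gene is 0.33 with 2 arrays against 2 and no pairing. Pairing leaves fewer arrangements and so a larger smallest p. The calls rest on the spread that limma borrows from all genes. The 4 arrays lie on 1 slide, each antibody in neighbouring positions, so position and antibody cannot be told apart, and the number of arrays limits the precision. The labels do not say that the experiments used separate animals, and p-values measure the spread between these samples. All genes tested had a median log2 fold change of -0.11, with -0.01 in experiment 1 and -0.20 in experiment 2.

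Of the 71 genes, 70 were tested, and 29 were higher with CPEB2 IgG, 3 were lower and 38 did not pass (limma, adjusted p under 0.05). The lower genes were Sema3b, Sema4f and Ntn5, the last detected only with control IgG, and their count was 0 without the second CPEB2 IgG array and 1 without the first control IgG array. Among all genes tested, 21.2% were higher and 20.4% were lower. The share of higher genes was 41.4% among the members (29 of 70) and is given as a description, with no test of the share. Their median log2 fold change was 0.70, with 0.50 in experiment 1 and 1.06 in experiment 2, against -0.11 for all genes tested. In both experiments 43 members had a log2 fold change above 0 and 16 had one below 0, and the sign differed between the experiments for 11 (61.4%, 22.9% and 15.7%, against 36.5%, 43.2% and 20.3% of all genes tested). Both CPEB2 IgG arrays were above both control IgG arrays for 42 of the 70 members (60%), against 33.7% of all genes tested, and below them for 14 (20%), against 38.2%. The remaining gene, Ntn4, a secreted netrin-family ligand, had raw signals of 14.5 and 16.6 after CPEB2 pulldown and 18.5 and 6.55 after control pulldown. It was well above background on 1 array and was not tested.

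Receptors had 15 of 34 genes higher and none lower, and ligands had 14 of 36 higher and 3 lower. The median log2 fold change was 0.76 for receptors and 0.38 for ligands, and the ligand median was 0.20 with normexp background correction, 0.60 with median centring, 0.81 without the first control IgG array and 1.06 in experiment 2 alone. The difference between these medians was 0.28 in experiment 1 and -0.01 in experiment 2, so it did not hold in both experiments. It also turned to -0.85 among the members whose raw signal exceeded 1000 somewhere, with a median of 1.25 for receptors and 2.10 for ligands. Among the ligands, 11 of 23 membrane-bound genes were higher and 1 lower, and 3 of 13 secreted genes were higher and 2 lower (Sema3b and Ntn5, the latter detected only with control IgG), whereas the median was 0.33 for membrane-bound and 0.42 for secreted ligands. The ephrins and plexins had the highest family medians, at 1.80 and 1.45, and the Slits, the netrins, the netrin-Gs and the neuropilins had no gene called higher.

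**Figure D1:**
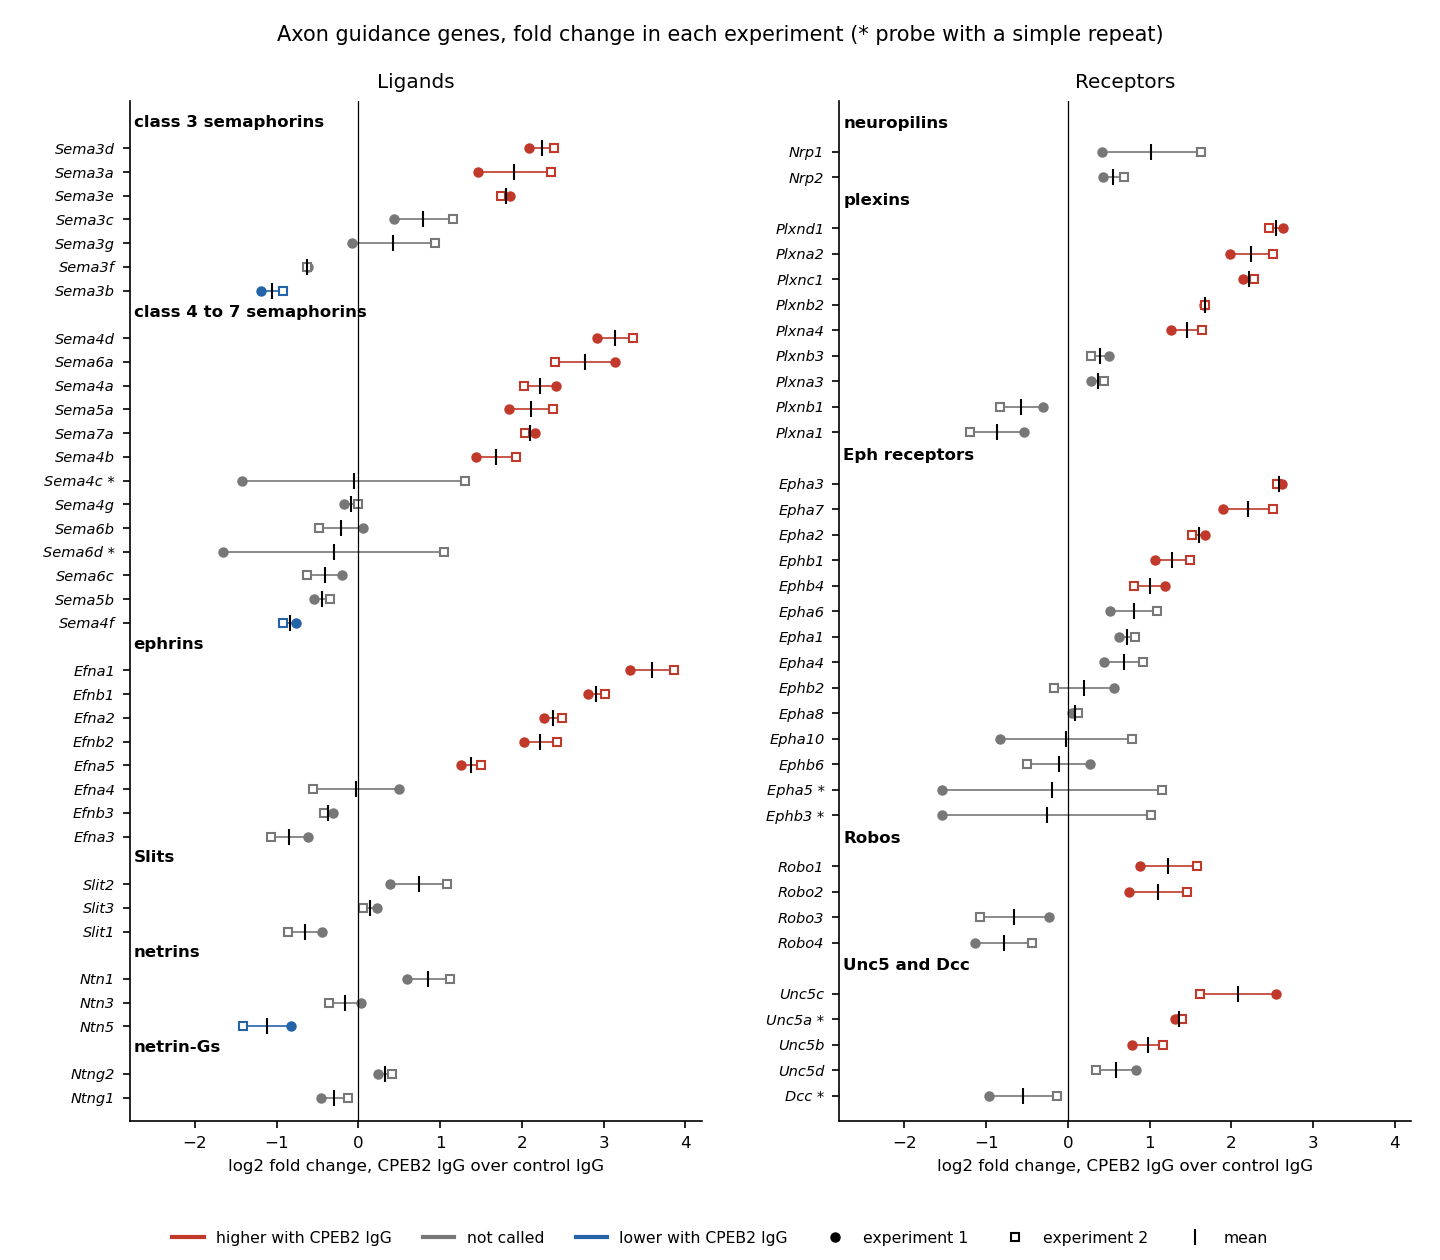
The log2 fold change of CPEB2 IgG over control IgG (horizontal axis) is drawn for each of the 70 genes tested, with a filled circle for experiment 1, an open square for experiment 2 and a tick for the mean, and colors give the limma call. The 29 genes called higher lie between 0.97 and 3.59, and the 3 called lower between -1.12 and -0.84. The -1.12 belongs to Ntn5 and is inexact, since Ntn5 was not well above background with CPEB2 IgG.

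Among the class 3 semaphorins, the secreted ligands, 3 of 7 genes were higher and 1 was lower, with a median of 0.79 that was 0.34 after centring by GC content. Sema3a, the founding repellent of the class, had raw signals of 1620 and 3113 after CPEB2 pulldown and 622 and 620.0 after control pulldown. Both CPEB2 IgG arrays were above both control IgG arrays, and the gap was wider in experiment 2. Its log2 fold change was 1.91 ± 0.63 (SD over 2 experiments, limma adjusted p = 0.0108, and 0.0595 without the filter on dim probes). Sema3d was at 372 and 373 after CPEB2 pulldown and at 92.5 and 72.1 after control pulldown, a log2 fold change of 2.24 ± 0.22 (SD over 2 experiments, limma adjusted p = 0.00566). Sema3e, which binds plexin-D1 without a neuropilin, had raw signals of 630.1 and 567 after CPEB2 pulldown and 184 and 172 after control pulldown, and a log2 fold change of 1.80 ± 0.08 (SD over 2 experiments, limma adjusted p = 0.00692). The groups of these 3 genes did not overlap. Sema3b moved the other way, with raw signals of 94.4 and 89.1 after CPEB2 pulldown and 229 and 171 after control pulldown, and a log2 fold change of -1.06 ± 0.19 (SD over 2 experiments, limma adjusted p = 0.0252). Its call was lost without the second CPEB2 IgG array (-1.02, adjusted p = 0.0685) and without the first control IgG array (-0.88, adjusted p = 0.127). The Sema3b call was also lost with median centring, spike-in scaling and no filter on dim probes. Sema3c, Sema3f and Sema3g did not pass, at 0.79, -0.62 and 0.42.

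Of the 13 semaphorins of classes 4 to 7, which sit in the membrane, 6 were higher, 1 was lower and 6 did not pass. Their values fell apart into a high group and a group near or below 0, so the median of -0.06 describes neither, and its sign changed with the scaling, from -0.17 with the percentile taken over detected probes to 0.23 after quantile normalization. It was 1.00 without the first control IgG array, 1.31 in experiment 2 alone and 0.96 without repeat probes. Sema4d, a ligand of plexin-B1, had raw signals of 1604 and 1865 after CPEB2 pulldown and 225 and 185 after control pulldown. Its log2 fold change was 3.14 ± 0.31 (SD over 2 experiments, limma adjusted p = 0.00543), an 8.80-fold difference. Sema6a, a transmembrane ligand of plexin-A2 and plexin-A4, was at 4526 and 2439.6 after CPEB2 pulldown and at 544 and 468 after control pulldown, a log2 fold change of 2.77 ± 0.52 (SD over 2 experiments, limma adjusted p = 0.00552). Sema4a had raw signals of 4593 and 4234 after CPEB2 pulldown and 909 and 1056 after control pulldown, and a log2 fold change of 2.22 ± 0.28 (SD over 2 experiments, limma adjusted p = 0.00583). For each of these genes the lower CPEB2 IgG array was well above the higher control IgG array.

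Sema7a, the lipid-anchored semaphorin that binds plexin-C1, was at 35265 and 30766 after CPEB2 pulldown and at 8371 and 7647 after control pulldown, a log2 fold change of 2.09 ± 0.09 (SD over 2 experiments, limma adjusted p = 0.00581). Sema5a, a transmembrane semaphorin with thrombospondin repeats, and Sema4b had log2 fold changes of 2.11 and 1.69. Sema5b, the relative of Sema5a, did not pass, at -0.44 ± 0.14 (SD over 2 experiments, limma adjusted p = 0.194). Whether Sema5b differed from Sema5a was not tested. Sema4f was lower, with raw signals of 125 and 148 after CPEB2 pulldown and 226 and 284 after control pulldown, and a log2 fold change of -0.84 ± 0.11 (SD over 2 experiments, limma adjusted p = 0.0433). That call was lost when any of the 4 arrays was left out, with values between -1.04 and -0.65 and adjusted p between 0.0828 and 0.247. The Sema4f call was also lost with median centring, spike-in scaling, no filter on dim probes and probes averaged. The remaining members lay between -0.41 (Sema6c) and -0.06 (Sema4c), and the probes of Sema4c and Sema6d hold the GT repeats shown above.

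Of the 8 ephrins, 5 were higher and none was lower. Efna1, a lipid-anchored ligand of EphA receptors, had raw signals of 1297 and 1522 after CPEB2 pulldown and 137 and 107 after control pulldown. Its log2 fold change of 3.59 ± 0.38 (SD over 2 experiments, limma adjusted p = 0.00543), a 12-fold difference, was the highest of the 70 genes tested. Efna2 was at 1034 and 1185 after CPEB2 pulldown and at 227 and 214 after control pulldown, a log2 fold change of 2.38 ± 0.16 (SD over 2 experiments, limma adjusted p = 0.00543). Efna5, known for its role in topographic maps, had raw signals of 2665 and 2942 after CPEB2 pulldown and 1187 and 1056 after control pulldown, and a log2 fold change of 1.38 ± 0.18 (SD over 2 experiments, limma adjusted p = 0.0126). Both transmembrane ephrins Efnb1 and Efnb2, which also signal backward into their own cell, were higher. Efnb1 had raw signals of 10599 and 9439 after CPEB2 pulldown and 1608 and 1184 after control pulldown, a log2 fold change of 2.91 ± 0.15 (SD over 2 experiments, limma adjusted p = 0.00543). Efnb2 was at 2015 and 2805 after CPEB2 pulldown and at 524 and 532 after control pulldown, a log2 fold change of 2.22 ± 0.28 (SD over 2 experiments, limma adjusted p = 0.00583). In each of them both arrays of the CPEB2 pulldown were the brighter ones. The third transmembrane ephrin, Efnb3, had raw signals of 1648 and 1528 after CPEB2 pulldown and 2173 and 2082 after control pulldown, and its log2 fold change of -0.37 ± 0.08 (SD over 2 experiments, limma adjusted p = 0.259) did not pass. Efna3 and Efna4 did not pass either, at -0.84 (adjusted p = 0.0528 from limma) and -0.03. Whether Efnb3 differed from Efnb1 and Efnb2 was not tested, since these are different probes.

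No Slit, netrin or netrin-G was higher. Slit1, a secreted ligand of Robos, had raw signals of 471 and 409 after CPEB2 pulldown and 679 and 756 after control pulldown, and a log2 fold change of -0.65 ± 0.30 (SD over 2 experiments, limma adjusted p = 0.0972). Slit2 and Slit3 were at 0.74 and 0.14 on the same scale. The secreted attractant Ntn1 was at 0.85 ± 0.38 (SD over 2 experiments, limma adjusted p = 0.0559) and Ntn3 at -0.17. Ntn5 was not well above background on either CPEB2 IgG array, with raw signals of 15.5 and 17.8, against 29.0 and 48.2 with control IgG. The measured signals put control IgG 2.17-fold higher, a value that is inexact because the CPEB2 IgG signals were not well above background. Ntn5 passed the filter on dim probes only through the control IgG arrays, where it is high, which favoured a call in that direction. Its adjusted p was 0.0296 from limma, and the call was lost without the first (0.154) or the second (0.130) CPEB2 IgG array and without the second control IgG array (0.198). The Ntn5 call was also lost with spike-in scaling, an intensity trend and no filter on dim probes. With normexp background correction its log2 fold change was -0.27 (limma adjusted p = 0.263). Ntng1 and Ntng2, lipid-anchored relatives of the netrins that bind other receptors, lay at -0.29 and 0.33, and the medians of the netrins and netrin-Gs changed sign with the scaling.

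**Figure D2:**
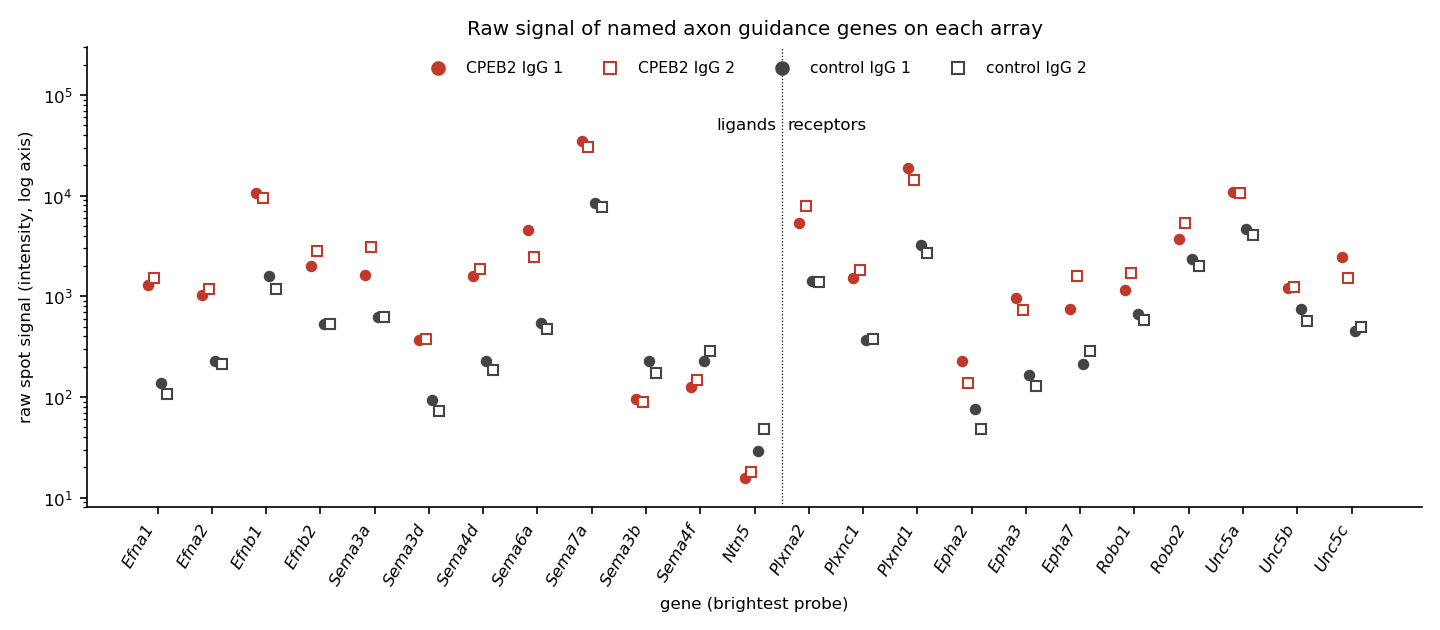
Raw spot signal (vertical log axis) on each of the 4 arrays for 23 ligands and receptors with a limma call, with red symbols for CPEB2 IgG, grey for control IgG, filled circles for experiment 1 and open squares for experiment 2. In 20 of the 23 genes both CPEB2 IgG symbols lie above both control IgG symbols, and in Sema3b, Sema4f and Ntn5 both lie below.

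Among the plexins, the signalling receptors of the semaphorins, 5 of 9 were higher and none was lower. Plxnd1, the receptor of Sema3e, had raw signals of 18826 and 14394 after CPEB2 pulldown and 3231 and 2668 after control pulldown. Its log2 fold change was 2.54 ± 0.12 (SD over 2 experiments, limma adjusted p = 0.00543). Plxna2 was at 5316 and 7821 after CPEB2 pulldown and at 1424 and 1399.8 after control pulldown, a log2 fold change of 2.24 ± 0.37 (SD over 2 experiments, limma adjusted p = 0.00611). Plxnc1, the receptor of Sema7a, had raw signals of 1529.6 and 1818 after CPEB2 pulldown and 366 and 379.9 after control pulldown, and a log2 fold change of 2.21 ± 0.10 (SD over 2 experiments, limma adjusted p = 0.00562). Plxnb2 and Plxna4 were also higher, at 1.67 and 1.45, and the call of Plxna4 was lost without the filter on dim probes. The other plexins did not pass, and Plxna1 and Plxnb1 were below 0 in both experiments, at -0.87 ± 0.47 and -0.57 ± 0.38 (SD over 2 experiments). The raw signals of Plxnb1, the receptor of Sema4d, were 57.3 and 39.5 after CPEB2 pulldown and 74.9 and 71.7 after control pulldown.

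The neuropilins, which bind class 3 semaphorins, did not pass. Nrp1 had raw signals of 59.5 and 94.8 after CPEB2 pulldown and 47.1 and 31.3 after control pulldown, a log2 fold change of 1.02 ± 0.85 (SD over 2 experiments, limma adjusted p = 0.0809), with 0.42 in experiment 1 and 1.62 in experiment 2. Nrp2 was at 1642 and 1740.3 after CPEB2 pulldown and at 1293 and 1103 after control pulldown, a log2 fold change of 0.55 ± 0.18 (SD over 2 experiments, limma adjusted p = 0.125). In both genes the CPEB2 IgG arrays were the higher ones.

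Of the 14 Eph receptors, 5 were higher, none was lower and 9 did not pass, with a median of 0.70 that was 0.44 without the second CPEB2 IgG array. Epha3 had raw signals of 959 and 737 after CPEB2 pulldown and 166 and 127 after control pulldown, a log2 fold change of 2.59 ± 0.04 (SD over 2 experiments, limma adjusted p = 0.00543). Epha7, known for a truncated form without kinase, was at 751 and 1607 after CPEB2 pulldown and at 214 and 287 after control pulldown, a log2 fold change of 2.20 ± 0.43 (SD over 2 experiments, limma adjusted p = 0.00652). The raw signals of Epha2 were 229 and 137 after CPEB2 pulldown and 75.5 and 48.5 after control pulldown, and its log2 fold change was 1.60 ± 0.12 (SD over 2 experiments, limma adjusted p = 0.00859). None of these groups overlapped. Ephb1 and Ephb4, the latter the partner of Efnb2 in blood vessels, were higher at 1.28 and 1.00. The call was lost for Epha2 without the first CPEB2 IgG array (1.23, adjusted p = 0.0693 from limma) or the second control IgG array (1.31, 0.0641). Leaving out the second control IgG array also ended the call of Ephb1 (1.13, 0.0619) and, like leaving out the first CPEB2 IgG or first control IgG array, that of Ephb4 (0.76 to 1.05, adjusted p from 0.0549 to 0.121). Epha1, Epha4 and Epha6 lay between 0.68 and 0.81 without passing, and the other receptors between -0.26 and 0.20.

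Among the Robos, Robo1 and Robo2, the neuronal receptors of Slits, were higher, and Robo3 and Robo4 did not pass. Robo1 was at 1154 and 1723 after CPEB2 pulldown and at 665 and 588 after control pulldown, a log2 fold change of 1.23 ± 0.49 (SD over 2 experiments, limma adjusted p = 0.0262). Robo2 was at 3744 and 5365 after CPEB2 pulldown and at 2358 and 1991 after control pulldown, a log2 fold change of 1.1 ± 0.50 (SD over 2 experiments, limma adjusted p = 0.0352). Both differences were larger in experiment 2, and neither pair of groups overlapped. Without the first or the second control IgG array neither call passed, with values from 1.01 to 1.29 and adjusted p from 0.0592 to 0.107, and Robo2 also did not pass without the second CPEB2 IgG array (0.84). Robo3, which modulates crossing of the midline, and Robo4, an endothelial receptor, were at -0.65 ± 0.60 and -0.79 ± 0.49 (SD over 2 experiments). The groups of Robo3 overlapped, and its other detected probe was at 0.21 ± 0.88 (SD over 2 experiments). Whether Robo3 and Robo4 differed from Robo1 and Robo2 was not tested, since these are different probes.

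Of the 4 Unc5 receptors, through which netrins repel axons, 3 were higher. Unc5c had raw signals of 2481 and 1508 after CPEB2 pulldown and 448 and 501 after control pulldown, a log2 fold change of 2.08 ± 0.66 (SD over 2 experiments, limma adjusted p = 0.00937, and 0.0565 without the filter on dim probes). Unc5a was at 10884 and 10607 after CPEB2 pulldown and at 4633 and 4093 after control pulldown, a log2 fold change of 1.36 ± 0.06 (SD over 2 experiments, limma adjusted p = 0.0122). Its only probe, at chr13:55107318-55107377 on the plus strand, holds a TA repeat, shown here in capitals because no other probe checks the value.
Unc5a: aatgtaaataaatTATATATATATATtgct
Unc5b was higher by 0.97 ± 0.27 (SD over 2 experiments, limma adjusted p = 0.0342), with raw signals of 1201 and 1240.4 against 739.6 and 562, and this call was lost when any of the 4 arrays was left out (0.81 to 1.14, adjusted p from 0.0559 to 0.151). Unc5d did not pass, at 0.59.

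Dcc, the attractive netrin receptor, had raw signals of 35037 and 42728 after CPEB2 pulldown and 72208 and 47831 after control pulldown, and a log2 fold change of -0.55 ± 0.58 (SD over 2 experiments, limma adjusted p = 0.202). The probe behind that value consists largely of repeats of GAA and is annotated on chromosome 7, whereas Dcc is on chromosome 18. The other Dcc probes, both on chromosome 18, were at 1.41 ± 0.41 and 1.79 ± 0.19 (SD over 2 experiments), with CPEB2 IgG higher on both arrays, and with the repeat probe left out Dcc passed the threshold (adjusted p = 0.0133 from limma).

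Where a gene had several detected probes they often disagreed. This held for 14 of 23 members with 2 or more such probes, taking a spread over 1 on the log2 scale, and in 11 of the 23 the probes had opposite signs. Both counts include Sema6a, whose other probe was detected only with control IgG, and Dcc, through its repeat probe. Epha5 and Sema6d had opposite signs only through their repeat probes, while the Epha5 probes without a repeat still differed in size (3.92 and 1.34). The matching shares over all genes with several probes are not given here. Sema6a was at 2.77 at the brighter probe. At its other probe the signals of 9.97 and 5.49 with CPEB2 IgG were not well above background, so that control IgG was at least 1.65-fold higher there and no exact spread can be given. Sema3a was at 1.91 and -0.35, Plxnc1 at 2.21 and 0.41, Ephb4 at 1.00 and -0.76, and Sema4f at -0.84 and 0.48. Epha7 was at 2.20, 1.67 and 0.68, Efnb2 at 2.22 and 0.77, Plxnd1 at 2.54 and 1.17, and Nrp2 at 0.55 and 1.70, so that in these genes the probes differed in size and not in sign. Robo2 was at 1.1 for the brightest probe, 0.12 for the second and -0.62 for the third, whose value rested on 1 bright control IgG array of 520 against 51.0 to 119 on the others. Sema5b was at -0.44, -1.17 and 0.33, and Ntng1 at -0.29, -0.18 and 0.99. With the probes of a gene averaged, Ephb4 (0.12), Robo2 (0.20), Sema3a (0.78) and Sema4f (-0.18) no longer passed, and Epha5 (1.69) and Nrp2 (1.13) did. Sema6a did not pass either, but its average includes the probe known only as a bound, so that loss cannot be read.

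The probe nearest the 3' end was the higher one in 15 of 21 members with probes that could be ordered, or 71.4%, against 72.1% of 5335 genes on the array. The median difference between the probes was 0.99 for members and 0.48 for all genes on the log2 scale. Which transcript ends the probes report was not tested.

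**Figure D3:**
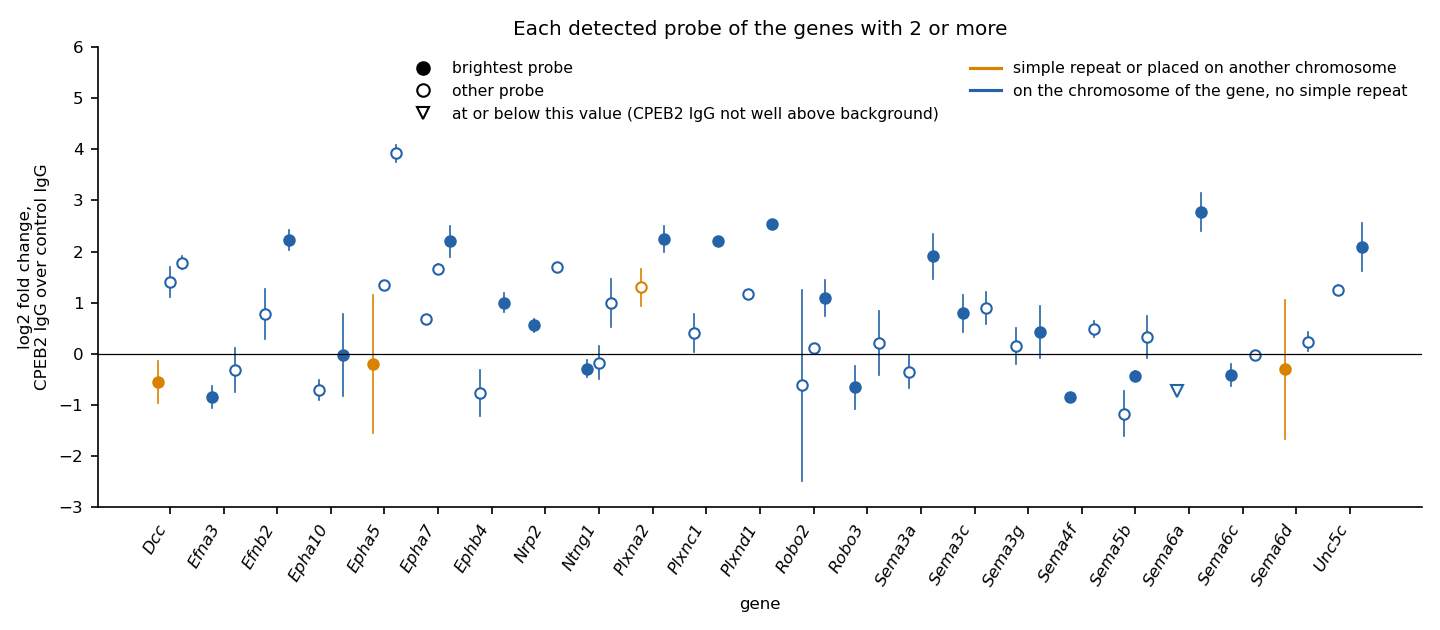
Log2 fold change of CPEB2 IgG over control IgG (vertical axis) for each detected probe of the 23 members with 2 or more, in alphabetical order, with circles for the mean, filled for the brightest probe, and lines that join both experiments. Orange marks probes that hold a simple repeat or are placed on another chromosome, the triangle marks the Sema6a probe known only as a bound (-0.72 or lower), and the probes of Epha5 span 4.11 on the log2 scale.

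Sema4c, Sema6d, Epha5 and Ephb3 were read by probes with a GT repeat, and they were the only members of the 70 tested with a log2 fold change below -1 in experiment 1 and above 0.8 in experiment 2. Sema4c had raw signals of 41288 and 63637 after CPEB2 pulldown and 117488 and 26094 after control pulldown. Ephb3 was at 23345 and 28602 after CPEB2 pulldown and at 71673 and 14408 after control pulldown, and the first control IgG array was the brightest and the second the dimmest in all 4 genes. Their log2 fold changes lay between -1.66 and -1.43 in experiment 1 and between 1.01 and 1.31 in experiment 2. The stretch GTGTGTGTGTGT was present in 113 of 55615 probes on the array, 4 of them of members, and the complementary AC stretch in 55, none of members. Over the 113 probes the medians were -1.49 and 1.12, and 101 of them (89.4%) were below -1 in experiment 1 and above 0.8 in experiment 2, against 0.65% of all probes. The AC stretch had medians of 1.26 and -0.73. The mean over both experiments is near 0 for these genes and their limma call says little, and the cause of the pattern was not tested.

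With repeat and misplaced probes left out, an alternative chosen after the data were seen, Epha5, an EphA receptor of forebrain neurons, was read by its probe nearest the 3' end. That probe had raw signals of 20962 and 20462 after CPEB2 pulldown and 1639.8 and 1229.9 after control pulldown. Its log2 fold change was 3.92 ± 0.23 (SD over 2 experiments, limma adjusted p = 0.00394), above that of any other member. The other probe without a repeat was at 1.34 ± 0.02. Sema6d was at 0.24 (adjusted p = 0.468 from limma) at its other probe, and Sema4c, Ephb3 and Unc5a had no other probe. Of the 67 members then tested, 30 were higher and 4 lower, with 28 of the 29 higher genes kept (Unc5a was not tested), Dcc and Epha5 added as higher and Efna3 as lower.

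**Figure D4:**
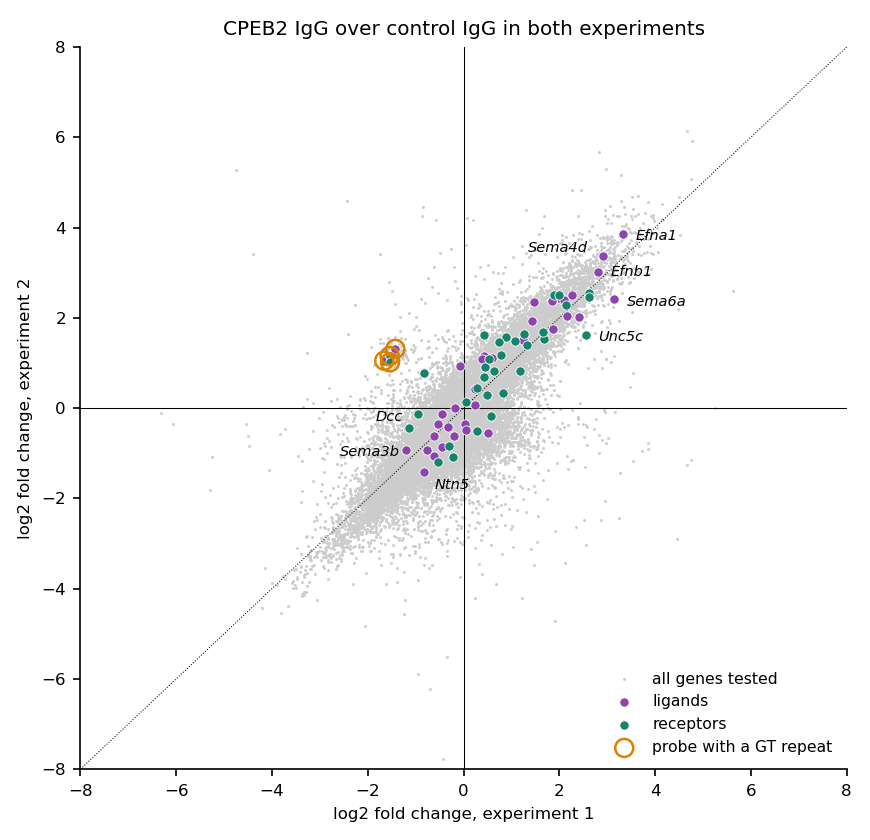
Log2 fold change in experiment 2 (vertical axis) against experiment 1 (horizontal axis), with all 19698 genes tested in grey, ligands in purple, receptors in green, and orange rings around the members read by a probe with a GT repeat. Most members lie along the diagonal from Ntn5 to Efna1, and the 4 ringed genes lie apart, between -1.66 and -1.43 in experiment 1 and between 1.01 and 1.31 in experiment 2.

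The GC content of the probe moved with the result. The 29 higher members had a median probe GC content of 35.0% and the 38 that did not pass had 45.0%, against 36.7% and 41.7% for all genes tested. Among members with probes under 40% GC, 20 of 31 were higher (64.5%, against 34.5% of all genes in that range), and from 40% to under 50% it was 8 of 25 (32.0%, against 14.9%). From 50% on it was 1 of 14 (7.14%, against 6.58%), and the gene was Efnb1. After the arrays were centred within 10 bins of GC content, 28 members were higher and 5 lower, with 27 of the 29 higher genes kept. Robo2 (0.65, adjusted p = 0.0722 from limma) and Unc5b (0.53, 0.0930) were lost as higher and Ntn5 (-0.84, 0.0502) as lower, Epha1 was added as higher, and Dcc, Robo4 and Sema5b were added as lower. Signal moved with the result too, with a median log2 signal relative to the 75th percentile of 1.14 for the higher members and -0.54 for those that did not pass. For all genes tested these medians were 1.24 and -1.34. The lower members had a median of -1.66, against 0.48 for all lower genes. The part of signal in the calls was not tested.

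**Figure D5:**
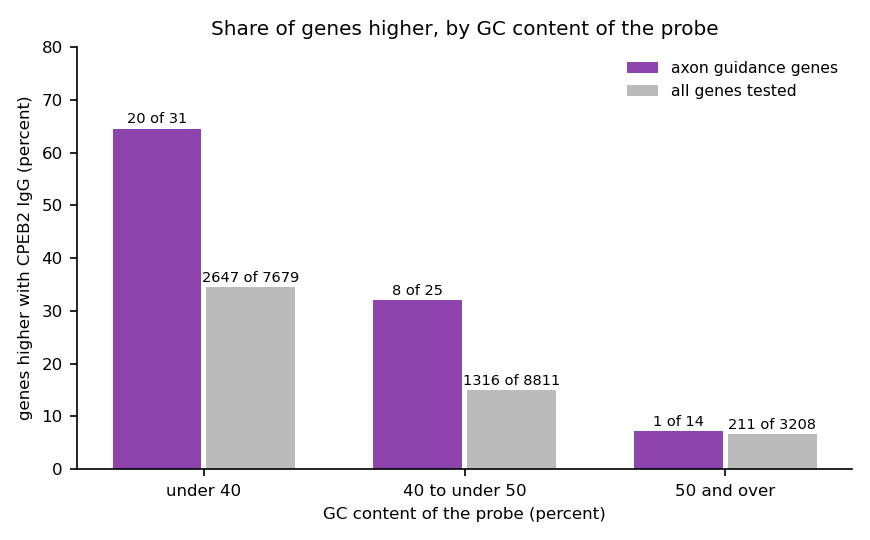
Share of genes called higher with CPEB2 IgG (vertical axis, percent) by the GC content of the probe (horizontal axis), for axon guidance genes in purple and all genes tested in grey, with the counts above the bars. The share falls with GC content in both sets, from 64.5% to 7.14% in the guidance genes and from 34.5% to 6.58% in all genes.

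CPE motifs were looked for in the probes, since no transcript sequence was given, with the letters TTTTAT or TTTTAAT on the strand of the transcript. Of 103 member probes, 4 held a match (3.88%), against 4.54% of all 55615 probes. On the other strand, which is no CPE, the shares were 3.88% and 6.51%. All 4 matches were TTTTAT, shown in capitals within 30 bases because they are the only motif matches that these data hold for the guidance genes. The probes are those of Epha2 (chr4:140885139-140885198, plus strand), Epha4 (chr1:77364339-77364398, minus strand), Sema3g (chr14:32043435-32043494, plus strand) and Sema4a (chr3:88239906-88239965, minus strand).
Epha2: gttacagatttcTTTTATtgggttgttttt
Epha4: aggctctgaggtTTTTATtttttggcgatc
Sema3g: tgttgttgatatTTTTATtgtcatgttgcc
Sema4a: ctgcttgtcacagacaatttattTTTTATt
Epha2 and Sema4a were higher, at 1.60 and 2.22, and Epha4 and Sema3g did not pass, at 0.68 and 0.42. Of all 1132 genes tested whose probe held a match, 443 were higher (39.1%). This compares with 21.2% of all genes tested and 34.5% of all genes with probes under 40% GC. The GC content of the probes with a match was not compared with that of other probes. A probe covers a small part of a transcript, so a probe without these letters says nothing of the rest.

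The study's methods ask for a raw signal over 1000 and an enrichment over 1.5-fold. Here the signal was required on a CPEB2 IgG array and the fold as the mean of both experiments, a reading of those methods, for any probe of a gene and without a test or the requirement of a CPE. These thresholds were passed by 27 of the 33 members that had such a raw signal, against 47.7% of 7033 genes. The members with such a signal that did not pass were Dcc, Efnb3, Ephb3, Sema4c, Sema6b and Sema6d, of which 4 were read by a repeat probe. Epha4, Epha5, Nrp2 and Ntng1 passed these thresholds without a limma call, Epha5, Nrp2 and Ntng1 through a probe other than the brightest. The count was 24 in experiment 1 alone and 30 in experiment 2 alone, and 18 with a raw signal above 2000.

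Other genes of guidance signalling were taken from 2 lists. Of 25 co-receptors and modulators tested, such as adhesion molecules and receptor phosphatases, 16 were higher and 1 was lower, with a median of 1.17. Cntn3, a contactin, had raw signals of 2464 and 4185 after CPEB2 pulldown and 313 and 338 after control pulldown (log2 fold change 3.36). Lrrc4, a ligand of netrin-G2, and Ptprf, a receptor phosphatase, were at 2.94 and 2.19, and the adhesion molecule L1cam was lower at -1.25. Of 58 intracellular effectors tested, 21 were higher and 13 lower, with a median of 0.48, beside 21.2% higher and 20.4% lower among all genes tested. Higher effectors included Mical3, a flavoprotein that acts on actin (3.00), and Pak3, a kinase downstream of Rac (2.82). The largest decreases were in Farp2 (-2.29) and Ngef (-2.23), exchange factors that act downstream of plexin-As and EphA receptors, and in Mical1 (-1.82), which acts downstream of plexin-As.

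Markers of the tissue and of its other cell types were measured in the same fit. All 8 neuronal markers were tested, none higher and 2 lower, and their summed raw signal was from 81623 to 84087 with CPEB2 IgG and from 119460 to 125577 with control IgG. Of 6 markers of cortex and hippocampus, 1 was higher and 2 were lower. Astrocyte markers had 2 of 5 higher and 2 lower, with summed signals from 29936 to 32177 with CPEB2 IgG and from 14668 to 19261 with control IgG. They ran from Aldh1l1 (-3.77) to Slc1a3 (3.44) on the log2 fold change scale. Slc1a3 made up most of the CPEB2 IgG sums (28729 and 26888.5, against 3302 and 2133 with control IgG). Aldh1l1 made up most of the control IgG sums (12652 and 9607, against 1007 and 600 with CPEB2 IgG), so the sums reflect single genes. Oligodendrocyte markers had none of 5 higher and 2 lower (sums from 54935 to 55004, against 50858 to 64653). Microglial markers had 1 of 5 higher and 2 lower (sums from 6603 to 7579, against 10389 to 12340), and endothelial markers 1 of 4 higher and none lower (sums from 2072 to 2086, against 1961 to 2491). Tek, an endothelial marker, was not tested. The part of other cell types in the guidance genes' differences was not tested.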

How the data were processed

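The authors deposited 1 Agilent Feature Extraction 10.5.1.1 file for each array, and the values used were its processed spot intensity, which per the file headers is background-subtracted and not normalized between arrays. Probes were named and placed by the array's own annotation (mm9). Spots marked as non-uniform or population outliers were left out, spots of a probe were averaged, and 66 of 55681 probes without a value on some array were dropped. The log2 intensity was set relative to the 75th percentile of each array.

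The brightest probe well above background on at least 2 of 4 arrays stood for a gene. limma 3.58.1 (R 4.3.3) was fitted to all genes. The same fit was also run on data simulated from the means and spread of these arrays, with an outcome that is not reported here. P-values were adjusted by Benjamini-Hochberg, and calls were made under 0.05. Each lysate was divided between both antibodies in the study's methods, so the experiment was a block. Same-numbered arrays deviated together (correlation 0.20 over 19698 genes). SD values are over the 2 experiments. Summaries used Python 3.11.15 with numpy 2.4.6, pandas 2.3.3 and matplotlib 3.10.9.

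The named genes were, in each family, up to 3 with the largest change in each direction past the threshold with the same sign in both experiments, the brightest member, members whose probes differed by over 1 on the log2 scale or in the sign of their calls, and members not well above background with 1 antibody. From each list of other guidance genes, the 3 largest changes in each direction were named, except 1 that is not reported here. Further genes were named after their values were seen, and the members and lists were chosen with earlier results of these data known. The alternatives were other scalings, GC centring, normexp, kept marked spots, no block, an intensity trend, other filters and thresholds, probes averaged, netrin-Gs left out of the ligands, and arrays or experiments left out. The alternative without repeat or misplaced probes was chosen after seeing the data. Fits with an array left out had no block for the experiment.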

Additional observations from a re-analysis of the deposited data

How the results depend on the processing

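The count of members higher with CPEB2 IgG was 29 and lay between 21 (no filter on dim probes) and 36 (median centring), and between 23 and 30 with 1 array left out. Without the filter Ephb1, Ephb4, Plxna4, Robo1, Robo2, Sema3a, Unc5b and Unc5c were lost as higher and Ntn5, Sema3b and Sema4f as lower. Without the replicate block it was 31, with 3 lower, and Epha6 and Ntn1 were added. The count of lower members, 3, was 7 with an intensity trend, 6 with normexp, 5 with quantile normalization, no scaling, the percentile over detected probes, GC centring or the filter on all 4 arrays, 1 with median centring or a raw signal above 1000, and 0 with spike-in scaling or no filter, and between 0 and 4 with 1 array left out, with 0 without the second CPEB2 IgG array and 1 without the first control IgG array. Without the second control IgG array Ntn5 and Sema4f were lost as lower, and Epha5, Ephb3 and Sema6d, all read by GT repeat probes, were gained. Members past the study's thresholds numbered between 18 and 33. The median log2 fold change over all genes moved by 0.23 with median centring, 0.13 with quantile normalization and 0.12 with spike-in scaling.

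With a raw signal above 1000 the medians were 2.10 (ligands), 1.25 (receptors), -0.85 (receptors minus ligands), 1.91 (class 3 semaphorins), 2.10 (class 4 to 7 semaphorins), 1.94 (plexins), 2.30 (ephrins), 1.16 (Robos) and -0.29 (netrin-Gs), and no Slit or netrin remained. Median centring gave 0.37 for Slits, 0.45 for Robos and 0.24 for netrin-Gs, spike-in scaling 0.27 for Slits, and GC centring 0.29 for Slits, 0.20 for netrin-Gs and 0.67 for Unc5 and Dcc. With probes averaged, medians were 1.44 for ephrins and 0.25 for netrin-Gs, and the median of Robos was -0.0105. Netrins had 0.19 without a filter and 0.34 with the filter on all 4 arrays, and class 4 to 7 semaphorins 0.96 without repeat probes. With netrin-Gs left out of the ligands, receptors minus ligands was 0.18. Leaving out an array or an experiment gave a ligand median of 0.25 to 1.06, a receptor median of 0.60 to 1.05, a receptor minus ligand median of -0.0135 to 0.45 and a median of class 4 to 7 semaphorins of -0.0823 to 1.31, with 1.00 without the first control IgG array. Class 3 semaphorins ranged from 0.43 to 1.15 and Eph receptors from 0.44 to 0.97. The ligand median was 0.20 with normexp, 0.58 with quantile normalization and 0.60 with median centring, the median of class 3 semaphorins was 0.34 with GC centring, and that of neuropilins 0.51 with normexp. The median of Robos ranged from 0.063 to 0.51 (at most 0.47 with a single array left out).

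Among members named singly, Dcc turned to 0.88 with probes averaged and 1.41 without repeat probes. Epha5 turned to 0.032 (median centring), 1.69 (probes averaged) and 3.92 (without repeat probes), and ranged from -1.33 to 0.94 with an array left out. Ephb3 turned to 0.084 (quantile) and 0.013 (GC centring), and ranged from -1.39 to 0.87. Ntn3 turned to 0.038 (quantile) and 0.062 (median centring), and ranged from -0.40 to 0.072. Ntng1 turned to 0.17 with probes averaged. Sema4c turned to 0.23 (quantile), 0.17 (median centring), 0.067 (spike-in) and 0.029 (GC centring), and ranged from -1.11 to 1.00. Over the 34 named members, 675 of 699 values under the alternatives kept their sign. The 24 others were those above and the values of a single experiment for Epha5 (1.15), Ephb3 (1.01), Sema4c (1.31) and Ntn3 (0.034), and none of these 6 members was called. The causes were not tested.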
